A study of Homo sapiens with 8 samples.

Results

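The genes described here are 34 immediate early transcription factors and regulators, taken by symbol from the 58051 genes counted in the libraries. They were the AP-1 (*FOS*, *JUN* and relatives), EGR, NR4A, KLF and IER genes with *MYC*, and a set of feedback and other regulators. They were listed by name and not by a threshold on their values, but with earlier results of these data known. All 34 had enough counts to be tested. RNA was sequenced from 4 lines (WT1 to WT4, all labelled as wild type), each grown from a single cell of A375, an established human melanoma line that carries an activated BRAF kinase. The cells were kept for 12 h in DMEM either with 10% FBS (serum) or without it (serum-free), which gave 4 libraries per condition and 1 library per line and condition. Each line is a clone of one tumor cell line, so the spread between lines is a spread between clones and not between patients. In bulk RNA, fewer cells with a message and less of it per cell cannot be told apart. The study asked which transcripts of melanoma cells respond to serum withdrawal. The question asked here was which immediate early genes stood higher or lower after 12 h without serum.

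Immediate early genes are transcribed within minutes of a growth factor signal and need no new protein for it. RAS and ERK signaling phosphorylates the ELK factors, which bind the promoter with SRF at the CArG box, and CREB acts at the CRE. The messages are short-lived, and many encode DNA-binding proteins that carry the signal on to a later set of genes. In melanoma with an active BRAF, the ERK arm of this pathway runs without serum, and FOSL1 is one of its well known stable outputs. Serum was withdrawn and never added back, so the brief burst for which these genes are named was not sampled, and all values below are levels at one time.

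The libraries held between 29759279 and 67101005 counts on genes with serum and between 37847737 and 73341551 without. Reads that aligned at several places made up 22.7% of the WT1 serum library and 16.8% of the WT2 serum library, against 5.73% to 10.1% in the other 6. The deposited WT4 counts bear another name than the label, so this line is identified by the labels alone. The names of all serum counts also carry one replicate tag and those of all serum-free counts another. The labels do not explain this tag, and whatever it marks cannot be told apart from serum. The melanocyte markers were low, with a summed level of 5.56 to 6.60 RPKM (reads scaled for exon length and library size) with serum and 4.83 to 5.47 without, over 7 genes. Most of it was *MITF*, at 4.76 to 5.95 RPKM with serum, and *SOX10* had no count in any library. The 6 markers of dedifferentiated melanoma, *AXL* and *VIM* among them, summed to 462 to 603 RPKM with serum and 425 to 541 without. Leukocyte markers summed to at most 0.518 RPKM and fibroblast markers to at most 2.90. Keratinocyte markers summed to 5.16 to 9.47 RPKM, nearly all of it *KRT14*, with *KRT1* at 0 in every library.

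Each gene was compared in 2 ways. The unpaired fit set the 4 serum-free libraries against the 4 serum libraries, and the paired fit compared the libraries within each line, with the line as a block. In both, a gene was called where the adjusted p of edgeR's quasi-likelihood test was under 0.05 over all 17671 genes tested. In the unpaired fit, *JUND* rose and *ATF3* and *KLF10* fell. This was 2.94% of the members higher and 5.88% lower, while 11.1% of all tested genes were higher and 14.0% lower. In the paired fit, 8 members rose (*FOSB*, *JUNB*, *JUND*, *EGR1*, *NR4A2*, *IER3*, *TRIB1* and *PHLDA1*) and 9 fell (*FOSL1*, *FOSL2*, *JUN*, *ATF3*, *NR4A1*, *KLF10*, *IER5*, *CSRNP1* and *RHOB*). These shares, 23.5% and 26.5%, were near the background of 23.2% of tested genes higher and 22.4% lower. The serum and serum-free CPM (counts scaled to the library size) did not overlap for 3 members, or 8.82%, against 27.5% of all tested genes. The median log2 fold change, serum-free over serum, was -0.01 over the members and 0.03 over all tested genes in the unpaired fit.

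In all 4 lines, 11 members were lower (32.4%) and 10 were higher (29.4%) without serum, close to the 26.7% and 28.6% of all tested genes. The other 13 were split between lines. Members of one family went in opposite directions in the paired fit, as did *FOSB* and *FOSL1*, *JUNB* and *JUN*, and *NR4A2* and *NR4A1*. The lines differed more than the conditions did. The range between lines with serum was larger than the change in the paired fit for 32 of 34 members (94.1%), against 74.7% of all tested genes, and its median was 1.67-fold against 1.41-fold. Most of the calls below were made in the paired fit alone.

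**Figure D1:**
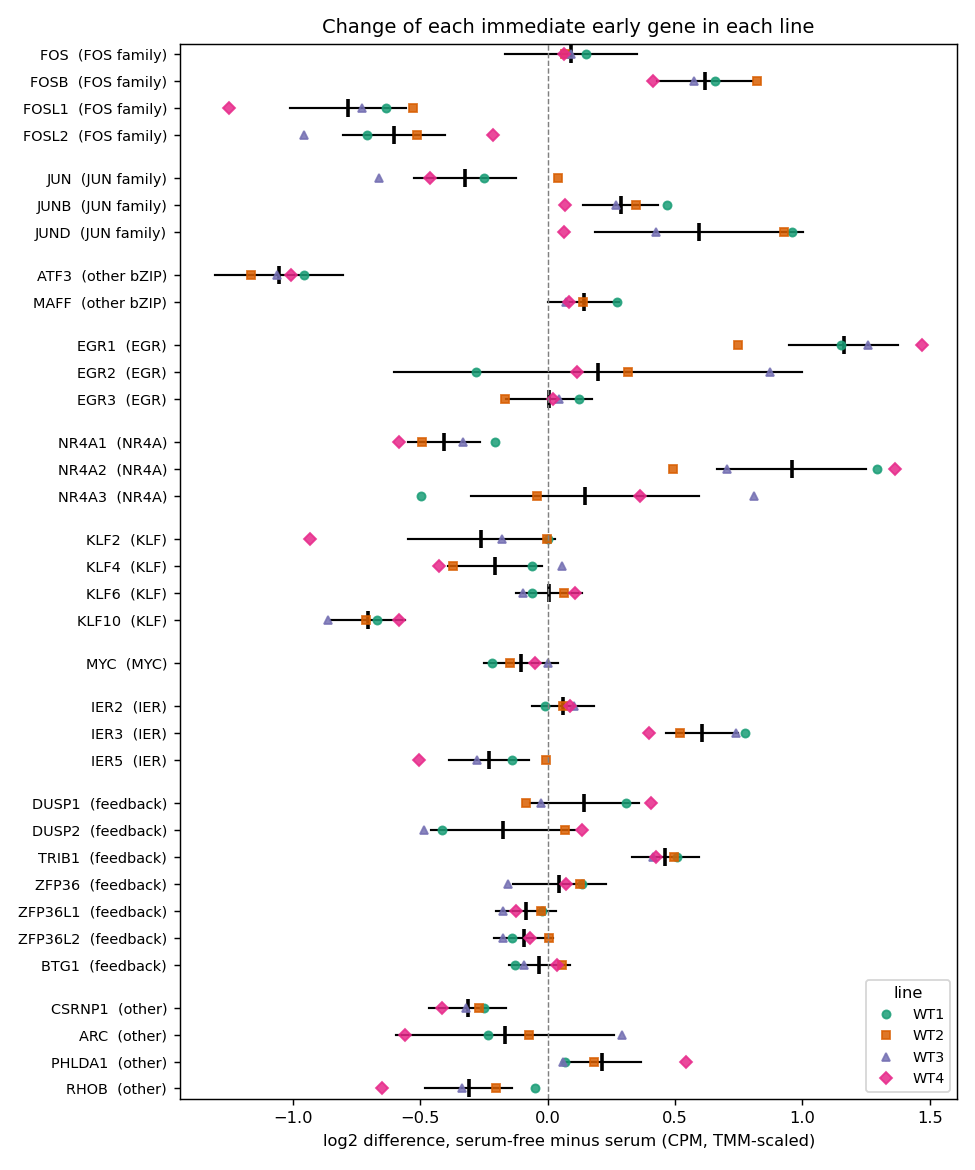
Log2 difference in TMM-scaled CPM (serum-free minus serum) of each of the 34 genes in each of the 4 lines (colored points), grouped by role. The black tick and bar give the log2 fold change of the paired fit and its 95% interval, and bars to the right of 0 (*EGR1*, *NR4A2*, *IER3*) and to the left of it (*ATF3*, *FOSL1*, *KLF10*) stand side by side within the module.

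For 25 of the 34 genes the RefSeq table for GRCh38.p14 gave a window from 250 bases before to 50 bases after the annotated start of the gene. Other starts of the same gene were not searched. Whether the messages measured here begin at the annotated start was not tested. The CArG box was matched in *EGR1* alone, at positions -105 and -83 from the start, which is 4% of the member windows against 1.29% of all 35116 windows and 1.11% of the 11942 windows of tested genes. The CRE (TGACGTCA) was matched in *JUND*, *MAFF* and *DUSP1*, or 12% of members against 1.85% of all windows, and 3.17% of those of tested genes. A TATA box (TATAAA) was matched in *FOS*, *FOSB*, *JUNB*, *DUSP1* and *BTG1*, or 20% of members against 11.5% of all windows and 6.13% of those of tested genes. The AP-1 site (TGANTCA) was matched in *FOSL2* alone (7.71% of all windows, 4.85% of those of tested genes) and the EGR site (GCGTGGGCG) in no member (0.795% of all windows, 1.27% of those of tested genes). Both strands were searched, and no match overlapped another. Sites farther upstream and sites with other letters were not searched, and 9 members had no window. A missing match therefore does not show that a gene lacks the site. Of the members with a match, *MAFF*, *DUSP1*, *FOS* and *BTG1* were called in neither the unpaired nor the paired fit, and *FOSL2* fell in the paired fit. Whether a match goes with a change was not tested. The 250 bases before the start are shown for 4 genes that rose in the paired fit and that carry one of these matches, with the match in capitals. *EGR1* (chr5:138465229-138465478, plus strand) shows both CArG boxes, *FOSB* (chr19:45467746-45467995, plus strand) and *JUNB* (chr19:12791236-12791485, plus strand) the TATA box, and *JUND* (chr19:18281623-18281872, minus strand) the CRE.
EGR1: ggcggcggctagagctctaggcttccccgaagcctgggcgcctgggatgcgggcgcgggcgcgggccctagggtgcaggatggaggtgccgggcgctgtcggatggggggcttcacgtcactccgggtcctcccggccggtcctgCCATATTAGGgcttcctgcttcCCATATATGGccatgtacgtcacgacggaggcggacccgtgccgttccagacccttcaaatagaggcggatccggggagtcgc
FOSB: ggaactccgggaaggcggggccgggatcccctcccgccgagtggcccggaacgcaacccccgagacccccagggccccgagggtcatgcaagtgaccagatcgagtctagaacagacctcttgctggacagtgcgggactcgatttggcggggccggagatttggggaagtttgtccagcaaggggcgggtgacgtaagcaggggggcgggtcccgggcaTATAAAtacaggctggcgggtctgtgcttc
JUNB: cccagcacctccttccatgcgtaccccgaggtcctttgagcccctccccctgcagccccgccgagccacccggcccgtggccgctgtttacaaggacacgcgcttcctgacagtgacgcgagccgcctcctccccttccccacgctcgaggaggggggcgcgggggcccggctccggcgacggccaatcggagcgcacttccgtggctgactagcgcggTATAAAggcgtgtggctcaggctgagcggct
JUND: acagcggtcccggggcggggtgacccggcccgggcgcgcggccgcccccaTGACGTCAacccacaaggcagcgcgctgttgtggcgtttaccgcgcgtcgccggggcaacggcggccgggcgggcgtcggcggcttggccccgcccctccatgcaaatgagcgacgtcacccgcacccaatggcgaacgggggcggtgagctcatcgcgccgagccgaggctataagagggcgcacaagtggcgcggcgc

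The *FOS* family supplies the partners that JUN proteins need to bind AP-1 sites with high affinity. By RPKM it was almost entirely *FOSL1*, which made up 94.9% ± 0.60 (SD, n = 4) of the summed family with serum and 92.0% ± 3.91 without. The summed RPKM of the family was 230 ± 41.4 with serum and 142 ± 44.6 without serum (SD, n = 4). *FOSL1* (ENSG00000175592, chromosome 11, 65892049 to 65900545) encodes FRA1, the AP-1 subunit that sustained ERK activity stabilizes. It was at 429, 459, 461 and 301 CPM with serum in WT1 to WT4, and at 276, 318, 278 and 126 CPM without. Every line was lower without serum, and the groups overlapped only in the low WT4 serum library, which lay within the serum-free range. The change was -0.73 (SE 0.28) on the log2 scale in the unpaired fit, with an adjusted p in edgeR's quasi-likelihood test of 0.0954. In the paired fit the change was -0.78 (SE 0.10), with an edgeR adjusted p of 1.57e-04. With line WT4 left out, the unpaired fit called *FOSL1* as well, at -0.63 and an edgeR adjusted p of 5.15e-04. So did DESeq2 on all 8 libraries, at -0.74 (DESeq2 adjusted p 0.0133).

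*FOSL2* (ENSG00000075426, chromosome 2, 28392858 to 28417317) encodes FRA2, the other FOS relative without a strong activation domain. Its level was 67.1, 75.3, 52.2 and 26.6 CPM with serum in WT1 to WT4, and 41.1, 52.8, 26.8 and 22.9 CPM without. It was lower without serum in each line, least so in WT4, and the groups overlapped. Within lines the change was -0.60 (SE 0.09, edgeR adjusted p 1.36e-04), while the unpaired fit gave -0.62 (SE 0.37, edgeR adjusted p 0.262). *FOSB* (ENSG00000125740, chromosome 19, 45467996 to 45475179) moved the other way. With serum it was at 8.88, 8.98, 15.0 and 19.0 CPM, and without serum at 14.0, 15.9, 22.3 and 25.3 CPM. All lines were higher without serum, with WT3 and WT4 above WT1 and WT2 in both conditions. Its paired change was 0.62 (SE 0.09, edgeR adjusted p 5.13e-05) and its unpaired change 0.58 (SE 0.29, edgeR adjusted p 0.178). *FOS* itself, the classic serum-responsive gene, was scarce and hardly differed between conditions. It was at 2.86, 2.83, 4.65 and 9.16 CPM with serum and at 3.18, 2.97, 4.96 and 9.58 CPM without. The lines spanned 3.23-fold with serum, whereas the paired log2 change was 0.09 with a 95% interval of -0.17 to 0.35 (edgeR adjusted p 0.572).

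**Figure D2:**
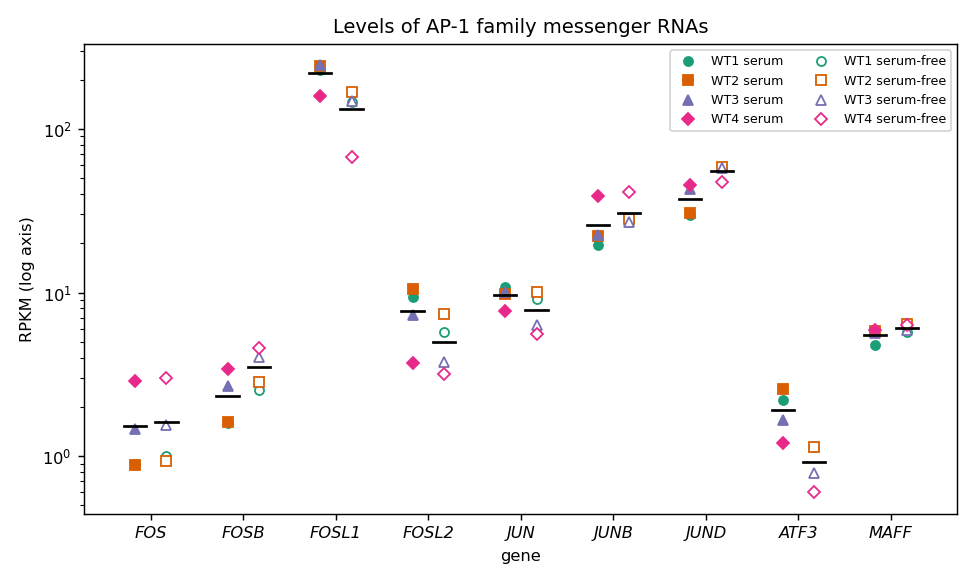
RPKM (log axis) of the 9 AP-1 family genes in each of the 8 libraries, filled symbols with serum and open symbols without, with a bar at the mean of 4 lines. *FOSL1* stood highest at 219 RPKM with serum and 132 without, and *FOS* and *ATF3* lay near the bottom, under 3.1 RPKM in every library.

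*JUND* led the *JUN* family by RPKM, with 51.1% ± 3.75 of its sum with serum and 58.9% ± 5.74 without (SD, n = 4). *JUNB* made up 35.1% and 32.9%, and *JUN* 13.9% and 8.28%. *JUND* (ENSG00000130522, chromosome 19, 18279694 to 18281622) encodes the JUN protein that resting cells keep and that holds back growth in fibroblasts. It was at 57.1, 59.0, 82.3 and 87.3 CPM with serum in WT1 to WT4, and at 111, 112, 111 and 91.2 CPM without. The groups did not overlap, but the rise was uneven, at 0.96, 0.93, 0.43 and 0.06 on the log2 scale for WT1 to WT4. The unpaired fit gave 0.57 (SE 0.15, edgeR adjusted p 0.0200) and the paired fit 0.60 (SE 0.16, edgeR adjusted p 0.0301). The call was lost in 7 of the 12 leave-one-out fits (1 library or 1 line dropped in turn), with an edgeR adjusted p of up to 0.109 (without line WT1). It was also lost in the paired fit corrected for GC content, where the change was 0.25 (edgeR adjusted p 0.0640). The longest *JUND* transcript is 69.9% GC.

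*JUNB* (ENSG00000171223, chromosome 19, 12791486 to 12793315) encodes an early response JUN that can dampen the activity of c-JUN. It was at 35.6, 40.4, 41.3 and 71.5 CPM with serum and at 49.2, 51.4, 49.7 and 74.8 CPM without. WT4 stood far above the other lines in both conditions and changed least. Its paired change was 0.29 (SE 0.07, edgeR adjusted p 0.00355), against 0.26 (SE 0.24, edgeR adjusted p 0.471) in the unpaired fit and 0.02 (edgeR adjusted p 0.719) in the GC-corrected paired fit. With line WT4 left out, the unpaired fit called *JUNB* too, at 0.36 (edgeR adjusted p 0.00552). Over all leave-one-out fits the unpaired change of *JUNB* ran from 0.089 to 0.53. For both *JUND* and *JUNB* the rise was largest in WT1 and WT2, the lines whose serum libraries held the most reads aligned at several places. The part of those reads in the result was not tested. *JUN* (ENSG00000177606, chromosome 1, 58780791 to 58784047), the founding member of the family, went down. Its level was 39.2, 35.5, 36.3 and 28.0 CPM with serum and 33.0, 36.5, 22.9 and 20.3 CPM without. It was lower without serum in WT1, WT3 and WT4 and slightly higher in WT2. Compared within lines, it changed by -0.33 (SE 0.09, edgeR adjusted p 0.0111) and by -0.30 (SE 0.19, edgeR adjusted p 0.283) in the unpaired fit. Without line WT3 the paired fit no longer called it (edgeR adjusted p 0.103), nor without WT4 (edgeR adjusted p 0.138).

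*ATF3* (ENSG00000162772, chromosome 1, 212565407 to 212620777), a stress-induced repressor that pairs with JUN proteins, had the steepest fall among the called members. It was at 8.85, 10.3, 6.61 and 4.83 CPM with serum and at 4.55, 4.57, 3.16 and 2.40 CPM without. The groups did not overlap, and every line lost about the same proportion. The unpaired fit gave -1.06 (SE 0.28, edgeR adjusted p 0.0206) and the paired fit -1.05 (SE 0.12, edgeR adjusted p 6.58e-06). The unpaired call was lost in 6 of the 12 leave-one-out fits, with an edgeR adjusted p of up to 0.0914 (without line WT3). *MAFF*, a small MAF protein that has no activation domain of its own, was at 26.7 to 33.3 CPM with serum and 32.2 to 36.0 without. Its paired change was 0.14 (edgeR adjusted p 0.0954).

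*EGR1* (ENSG00000120738, chromosome 5, 138465479 to 138469303), the zinc finger factor whose promoter carries the CArG boxes shown above, had the largest rise among the called members. With serum it was at 8.64, 9.92, 14.7 and 25.9 CPM in WT1 to WT4, and without serum at 19.2, 16.7, 35.1 and 71.9 CPM. It rose in every line, but the groups overlapped, and the lines spanned 3.0-fold with serum and 4.31-fold without. With the line as a block, the change was 1.16 (SE 0.10, 95% interval 0.95 to 1.37, edgeR adjusted p 7.29e-07). The unpaired fit gave 1.28 (SE 0.56, edgeR adjusted p 0.135), and from 0.68 (without the WT4 serum-free library) to 1.69 (without the WT4 serum library) in the leave-one-out fits, none of which called it. *EGR3* was at 11.4 to 28.6 CPM with serum and 10.2 to 29.0 without, with a paired change of 0.00 (95% interval -0.16 to 0.17, edgeR adjusted p 0.974). *EGR2* had only 4 to 80 counts in a library, most of them in WT4, and a paired change of 0.20 with a wide interval of -0.60 to 1.0 (edgeR adjusted p 0.701).

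The NR4A genes encode orphan nuclear receptors that act without a known hormone. *NR4A2* (ENSG00000153234, chromosome 2, 156324437 to 156332721), also called NURR1, was at 3.90, 4.32, 8.83 and 9.58 CPM with serum and 9.55, 6.09, 14.4 and 24.7 CPM without. It was higher without serum in each line, most in WT4 and WT1, and the groups overlapped. On the log2 scale the paired change was 0.96 (SE 0.14, edgeR adjusted p 5.38e-05), against 1.04 (SE 0.48, edgeR adjusted p 0.151) in the unpaired fit. The unpaired leave-one-out fits gave 0.59 to 1.29, and none called *NR4A2*. *NR4A1* (ENSG00000123358, chromosome 12, 52022832 to 52059503), also called NUR77, was the more abundant and went down. It was at 61.9, 75.4, 99.8 and 143 CPM with serum and at 53.6, 53.5, 79.2 and 95.2 CPM without. The order of the lines was nearly kept while each fell, and the groups overlapped. The paired change was -0.41 (SE 0.07, edgeR adjusted p 1.59e-04) and the unpaired change -0.43 (SE 0.30, edgeR adjusted p 0.327). In the leave-one-out fits the unpaired change ran from -0.61 to -0.17. *NR4A3* was rare, at 1.29 to 3.38 CPM with serum and 1.42 to 3.29 without. Its lines moved in both directions, and the paired change was 0.15 (95% interval -0.30 to 0.59, edgeR adjusted p 0.60).

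**Figure D3:**
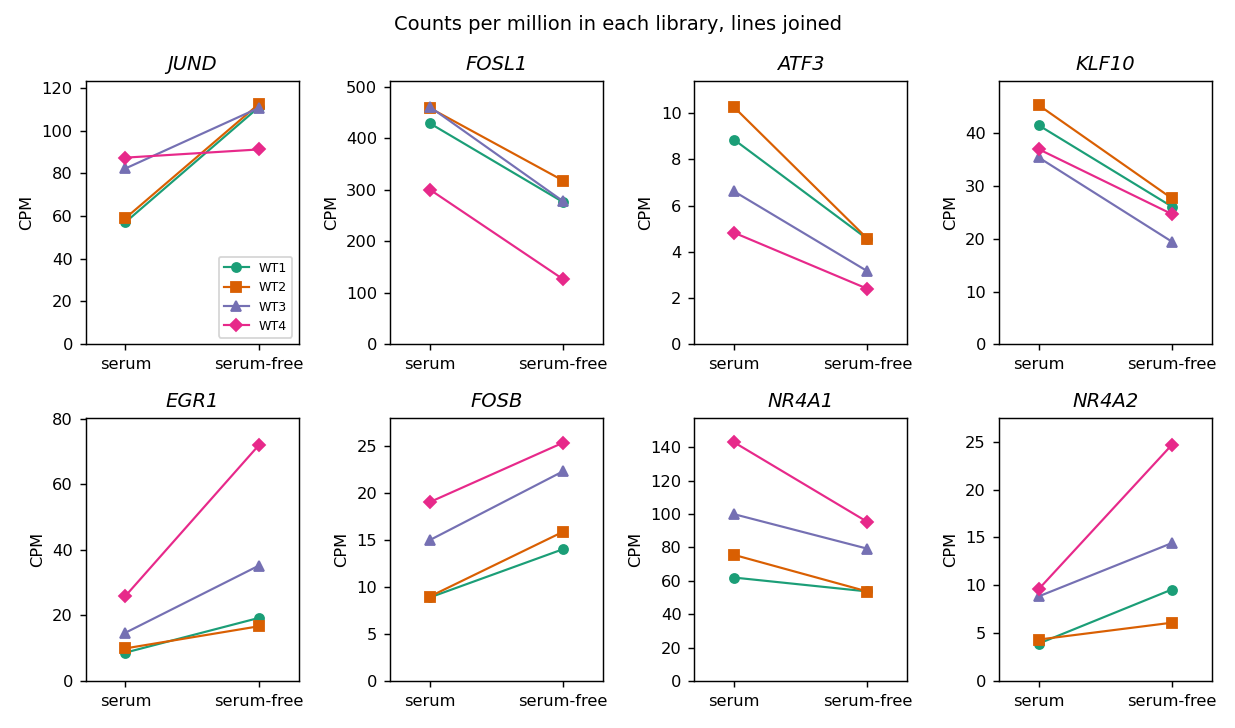
CPM of 8 members in each library, linear axes from 0, with the serum and serum-free libraries of one line joined. The conditions are apart for *JUND*, *ATF3* and *KLF10*, whereas *EGR1*, *FOSB*, *NR4A1* and *NR4A2* overlap between conditions and still move the same way in all 4 lines.

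*KLF10* (ENSG00000155090, chromosome 8, 102648784 to 102655725), a zinc finger repressor first found as an early response to TGF-β, gave the steadiest call. It was at 41.6, 45.4, 35.4 and 37 CPM with serum and at 26.1, 27.7, 19.5 and 24.7 CPM without. The lines lay close together in each condition, and the groups did not overlap. The unpaired fit gave -0.70 (SE 0.12, edgeR adjusted p 0.00401), the paired fit -0.71 (SE 0.07, edgeR adjusted p 1.95e-06). It stayed called in all 12 leave-one-out fits, with an edgeR adjusted p of at most 0.0350. The other KLF factors were not called in either fit. *KLF6* was at 47.9 to 64.4 CPM with serum and 51.6 to 67.4 without, with a paired change of 0.00 (95% interval -0.13 to 0.13). *KLF4* was at 18.9 to 36.6 and 19.6 to 27.2 CPM, with a paired change of -0.21 (edgeR adjusted p 0.0621). *KLF2*, known best from endothelial cells under flow, was at 18.1 to 24.1 CPM with serum and 9.49 to 24.0 without, and only WT4 differed much, by -0.93 on the log2 scale (paired change -0.26, edgeR adjusted p 0.130). *MYC*, the growth-promoting factor that serum induces in quiescent cells, was at 24.1 to 35.9 CPM with serum and 23.3 to 35.9 without. Its paired change was -0.10, with a 95% interval of -0.25 to 0.04 (edgeR adjusted p 0.230).

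Of the IER genes, *IER3* (ENSG00000137331, chromosome 6, 30743199 to 30744547), which modulates ERK signaling and cell survival, stood highest. It was at 88.5, 105, 105 and 161 CPM with serum and at 151, 151, 176 and 212 CPM without. Every line rose, and only the WT4 serum library reached the serum-free range. In the paired fit the change was 0.61 (SE 0.07, edgeR adjusted p 5.38e-06) and in the unpaired fit 0.59 (SE 0.19, edgeR adjusted p 0.0520). Without line WT4 the unpaired fit called it too, at 0.68 (edgeR adjusted p 0.00102). In the lifted annotation 38.9% of its exon bases are shared with genes on the other strand, so its count is uncertain if strand was not used. *IER5* (ENSG00000162783, chromosome 1, 181088700 to 181092900), an activator of heat shock factor, was at 71.4, 86.2, 79.4 and 84.1 CPM with serum and 64.8, 85.9, 65.5 and 59.3 CPM without. It was lower in each line, by very little in WT2, and the groups overlapped. Within lines the change was -0.23 (SE 0.07, edgeR adjusted p 0.0187), a call lost without line WT3 (edgeR adjusted p 0.0951), and the unpaired fit gave -0.22 (edgeR adjusted p 0.188). Leaving out line WT4 made the paired change -0.14 (edgeR adjusted p 0.0338). Without the WT2 serum-free library the unpaired fit called *IER5*, at -0.34 (edgeR adjusted p 0.0314). *IER2* was at 49.7 to 56.3 CPM with serum and 53.2 to 59.8 without, with a paired change of 0.06 (edgeR adjusted p 0.425). More of its exon bases, 52.2%, are shared with genes on the other strand. Over 10% was also shared with other genes by *ZFP36L2* (22.4%), *BTG1* (16.0%), *JUNB* (14.2%) and *NR4A1* (10.3%).

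Feedback genes limit the response that induces them, and *BTG1* was grouped with them here. *TRIB1* (ENSG00000173334, chromosome 8, 125430358 to 125438403), a pseudokinase that binds MEK and directs protein degradation, was the only one called. It was at 24.7, 22.9, 31.3 and 41.9 CPM with serum and at 35.1, 32.3, 41.7 and 56.3 CPM without. All lines rose by nearly the same proportion, and the groups overlapped, with the WT4 serum library inside the serum-free range. Its paired change was 0.46 (SE 0.06, edgeR adjusted p 3.10e-05) and its unpaired change 0.46 (SE 0.23, edgeR adjusted p 0.185). Without line WT4 the unpaired fit called *TRIB1* as well, at 0.47 (edgeR adjusted p 0.0377). *DUSP1* and *DUSP2*, phosphatases that switch off MAP kinases, were at 10.6 to 13.8 and 5.11 to 9.86 CPM with serum, and at 13.0 to 16.9 and 4.65 to 7.04 without. Their paired changes were 0.14 (edgeR adjusted p 0.257) and -0.18 (edgeR adjusted p 0.30). The ZFP36 proteins bind AU-rich elements and shorten the life of messages such as *FOS*. *ZFP36L2* was the most abundant of them at 59.8 ± 5.76 RPKM with serum and 55.8 ± 2.51 without (SD, n = 4), and *ZFP36L1* was at 14.1 ± 1.04 and 13.3 ± 0.505 RPKM. The paired changes were -0.10 for *ZFP36L2* (edgeR adjusted p 0.166), -0.09 for *ZFP36L1* (edgeR adjusted p 0.225) and 0.05 for *ZFP36* (edgeR adjusted p 0.697). *BTG1*, an antiproliferative partner of the CCR4-NOT deadenylase, was at 93.1 to 103 CPM with serum and 89.0 to 106 without, with a paired change of -0.03 (edgeR adjusted p 0.671).

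Among the other regulators, *PHLDA1* (ENSG00000139289, chromosome 12, 76025447 to 76031776), whose message follows growth factor and ERK activity, was abundant. It was at 393, 463, 405 and 569 CPM with serum and at 412, 524, 422 and 830 CPM without. Each line was higher without serum, WT4 by the most. Compared within lines, it changed by 0.21 (SE 0.07, edgeR adjusted p 0.0247), a call lost without line WT2 (edgeR adjusted p 0.0618), and the unpaired fit gave 0.26 (edgeR adjusted p 0.466). Without line WT4 the paired change was 0.10 (edgeR adjusted p 0.0426). *RHOB* (ENSG00000143878, chromosome 2, 20447074 to 20449440), an early-induced small GTPase of endosomes, was at 66.3, 76.2, 91.5 and 126 CPM with serum and 64.1, 66.2, 72.4 and 80.2 CPM without. The lines kept their order and drew closer together without serum. With the line as a block, the change was -0.31 (SE 0.08, edgeR adjusted p 0.00524) and in the unpaired fit -0.35 (SE 0.18, edgeR adjusted p 0.201). In the leave-one-out fits the unpaired change ran from -0.47 to -0.14. With line WT4 left out, the paired change was -0.20 (edgeR adjusted p 0.00372), and the largest edgeR adjusted p with 1 line left out was 0.0473 (without WT3). *CSRNP1* (ENSG00000144655, chromosome 3, 39141855 to 39154641), a nuclear protein induced by AXIN1, was at 23.7, 29.4, 20.8 and 29.4 CPM with serum and 19.9, 24.4, 16.7 and 22.0 CPM without. All lines fell by a similar proportion and the groups overlapped. On the log2 scale the paired change was -0.31 (SE 0.07, edgeR adjusted p 0.00221) and the unpaired change -0.31 (SE 0.15, edgeR adjusted p 0.142). In the GC-corrected paired fit the change was -0.48 (edgeR adjusted p 1.12e-05). *ARC*, best known from active neurons, was at 1.22 to 4.37 CPM with serum and 1.24 to 2.97 without, and its paired change was -0.17 (95% interval -0.60 to 0.26, edgeR adjusted p 0.528).

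**Figure D4:**
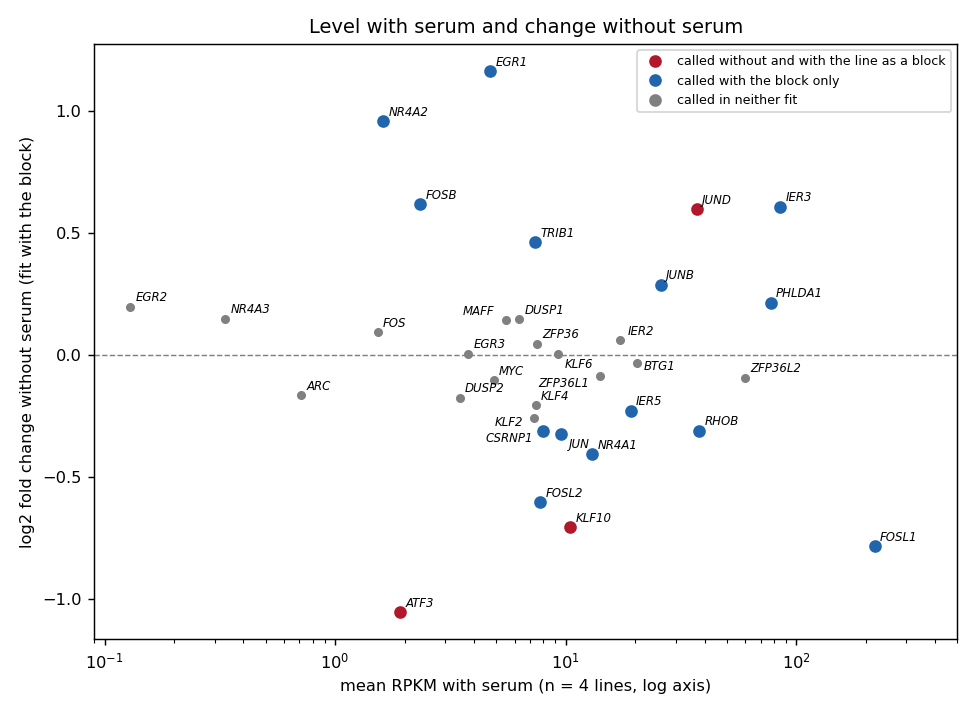
Mean RPKM with serum (log axis, n = 4 lines) against the log2 fold change of the paired fit for the 34 members, colored by the fits that called them. Only *JUND*, *ATF3* and *KLF10* were called in both fits, and the abundant members include one that fell (*FOSL1*) and 2 that rose (*IER3*, *PHLDA1*).

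By level per exon length, 27 of the 34 members stood above the median of the 17425 genes with a length, which was 2.75 RPKM with serum, and 29 stood above the median of 2.93 RPKM without serum. *FOSL1* ranked 152 with serum and 209 without. The median over members was 8.07 RPKM with serum and 7.26 without. WT4 often stood at one end of the lines. WT4 was the highest line in both conditions for 17 members (50%), among them *FOS*, *FOSB*, *JUNB*, *EGR1*, *NR4A1*, *NR4A2* and *RHOB*, against 18.2% of all tested genes. It was the lowest in both for 7 members (20.6%), *FOSL1*, *FOSL2*, *JUN*, *ATF3*, *KLF2*, *KLF6* and *MYC*, against 19.1%. These genes were named after their values were seen, and the lines were not tested against each other.

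GC content moved with the change. Across all tested genes with a value, Spearman's correlation of the log2 fold change with GC content was 0.36, and these genes are not independent of each other. The members were richer in GC, at a median of 55.6% against 47.9%, and 28 of the 34 lay above that median. In the paired fit with an offset for GC content, 7 members rose (20.6%) and 15 fell (44.1%), against 23.7% of all tested genes higher and 22.5% lower. The median change of the members was then -0.10, and that of all genes 0.04. *JUND* and *JUNB* were no longer called, *BTG1* was now called higher, and *KLF2*, *KLF4*, *IER2*, *DUSP2*, *ZFP36L1* and *ZFP36L2* were now called lower. *EGR1* (1.06, edgeR adjusted p 3.86e-05), *FOSB* (0.47, edgeR adjusted p 1.08e-04), *FOSL1* (-0.95, edgeR adjusted p 3.58e-05), *ATF3* (-1.03, edgeR adjusted p 2.87e-06) and *KLF10* (-0.69, edgeR adjusted p 2.03e-07) were called as in the paired fit without the offset.

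Genes around the module were counted over 7 lists, in which 123 of 129 genes were tested, each counted once. The lists were chosen with earlier results of these data known. The unpaired fit called 9 higher and 29 lower (7.32% and 23.6%), against 11.1% and 14.0% of all tested genes. The paired fit called 26 higher and 47 lower (21.1% and 38.2%), against 23.2% and 22.4%. Upstream, among 22 genes of RAS and ERK signaling and SRF, 2 rose and 3 fell in the unpaired fit (5 and 5 in the paired fit). The 2 that rose were *RPS6KA2*, an ERK-activated kinase, by 1.52 (SE 0.26, edgeR adjusted p 0.00380), and *RPS6KA5*, the kinase MSK1. The 3 that fell were *RPS6KA3*, the kinase RSK2, with -0.47 (SE 0.11, edgeR adjusted p 0.0115), *RPS6KA4* and *NRAS*. The shares of the list called higher and lower, 9.09% and 13.6% unpaired and 22.7% each way paired, were near those of all tested genes given above. With the GC correction they were 13.6% and 36.4%, against 23.7% and 22.5%. *SRF* was not called in the unpaired fit, but in the paired fit at 0.21 (edgeR adjusted p 0.0204), and with the GC correction it was at 0.02 (edgeR adjusted p 0.812). *CREB1*, *ELK1*, *ELK3* and *ELK4* were called in neither the unpaired nor the paired fit. With the GC correction *ELK1* was called lower, at -0.11 (edgeR adjusted p 0.0450), and the others were not called. *RPS6KA5*, *RPS6KA4*, *NRAS*, *SRF*, *CREB1* and the ELK genes were named after their values were seen.

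Among the 13 tested bZIP partners, 1 rose (7.69%) and 3 fell (23.1%) in the unpaired fit, against 11.1% and 14.0% of all tested genes (3 and 4, or 23.1% and 30.8%, in the paired fit). In the GC-corrected paired fit 3 rose (23.1%) and 6 fell (46.2%), against 23.7% and 22.5% of all tested genes. *MAFK*, a small MAF protein, rose by 0.64 (SE 0.11, edgeR adjusted p 0.00396). *ATF4*, the factor of the amino acid and unfolded protein response, changed by -0.56 (SE 0.06, edgeR adjusted p 8.46e-04), and *CREM* and *ATF1* fell as well. Of 12 tested AP-1 target genes, 1 rose and 3 fell in the unpaired fit. The collagenase *MMP1* rose by 1.2 (SE 0.29, edgeR adjusted p 0.0142). The urokinase receptor gene *PLAUR* changed by -0.41 (SE 0.10, edgeR adjusted p 0.0184), and *HMOX1* and the chemokine gene *CXCL8* fell as well. The shares of the targets, 8.33% higher and 25% lower, stand beside 11.1% and 14.0% of all tested genes. Within lines 4 rose (33.3%) and 6 fell (50%), beside 23.2% and 22.4% of all tested genes. With the GC correction 4 rose (33.3%) and 7 fell (58.3%). *CREM*, *ATF1*, *HMOX1* and *CXCL8* were named after their values were seen.

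Of the 30 other early response genes tested, none rose and 5 fell (16.7%) in edgeR's unpaired fit. Of all tested genes 11.1% rose and 14.0% fell, so the share that fell was near that of all genes. In the paired fit 2 rose (6.67%) and 12 fell (40%), against 23.2% and 22.4% of all tested genes, and with the GC correction 2 rose (6.67%) and 15 fell (50%), against 23.7% and 22.5%. None was higher at an unadjusted p under 0.05 in the unpaired fit either, where 7 were lower, and DESeq2 and voom each called 0 higher and 5 lower. *HBEGF*, an EGF receptor ligand, changed by -0.70 (SE 0.17, edgeR adjusted p 0.0148) and *NFIL3*, a bZIP repressor, by -0.87 (SE 0.21, edgeR adjusted p 0.0152). The remaining ones, *PLAUR*, *MCL1* and *GADD45A*, were named in this list after their values were seen. The CCR4-NOT deadenylase and factors that bind AU-rich elements clear or protect early messages. This list, too, was chosen with earlier results of these data known. Of 16 such genes, 10 fell (62.5%) and none rose in edgeR's unpaired fit, and 13 fell (81.3%) and none rose in the paired fit. Of all tested genes, 14.0% were lower and 11.1% higher in the unpaired fit, and 22.4% and 23.2% in the paired fit. The list is poorer in GC, at a median of 44%, and in the GC-corrected paired fit 11 fell, 1 rose and the median change was -0.18. At an unadjusted p under 0.05, 12 were lower and 0 higher in the unpaired fit and 13 and 0 in the paired fit. At that threshold the unpaired fit gave 4 higher and 4 lower upstream, 2 and 4 bZIP partners, and 2 and 5 AP-1 targets. The NAB and MAX network genes had 3 and 3, and the paralogs of the members 5 and 4. DESeq2 called 12 lower and voom 11, and both called 0 higher, beside the calls over all genes given above. These counts come from the same libraries as edgeR's adjusted calls. *CELF1* changed by -0.40 (SE 0.06, edgeR adjusted p 0.00200) and *ELAVL1*, which stabilizes AU-rich messages, by -0.40 (SE 0.06, edgeR adjusted p 0.00238). In the unpaired fit the median log2 fold change of that list was -0.26, against 0.03 for all tested genes.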

How the data were processed

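Total RNA was depleted of ribosomal RNA and sequenced as paired-end reads. For each library the authors deposited whole-number read counts, not normalized, and per the labels they used cutadapt, TopHat2 2.0.11 and HTSeq on GRCh38. Which annotation release and strand setting HTSeq used is not given in the sources used here, so genes that overlap on opposite strands are uncertain. Ambiguous reads, which HTSeq leaves out, made up 8.23% to 11.5% and stayed out of library sizes, as did reads aligned at several places. Identifiers were matched to symbols for 55604 of 58051 genes. Positions came from RefSeq on GRCh38.p14, and exon lengths, overlaps and GC content from GENCODE lifted to GRCh37. The labels give GRCh38 for the counts, while the methods of the study name hg19 (GRCh37) for its own FPKM values. GC content was known for 17425 of 17671 tested genes (98.6%). RPKM used TMM-scaled library sizes and merged exons.

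Counts were filtered with filterByExpr (minimum count 10), scaled by TMM and compared by edgeR's robust quasi-likelihood test (glmQLFit and glmQLFTest, version 4.0.16, R 4.3.3), with Benjamini-Hochberg adjustment over all tested genes and a threshold of 0.05. The unpaired fit had no block. The line number pairs the libraries, since both libraries of a number come from one clone, and their deviations from the condition means correlated at 0.39, 0.58, 0.44 and 0.59 in WT1 to WT4, against at most 0.11 between different lines. The paired fit had the line as a replicate block. P-values of the unpaired fit set the change against the spread of levels between these 4 clones. Those of the paired fit set it against the spread of the change between the clones.

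The members and gene lists were chosen with earlier results of these data known. Values in every library were given for members called in either fit, and from each other list the 2 genes with the smallest p among those called without the block were named, with exceptions stated where they occur. Alternatives were the block, the block with an offset for GC content (lowess span 0.3), scaling by RLE or by the upper quartile, a filter of 10 counts per library or none, DESeq2 1.42.0, voom in limma 3.58.1, longest transcripts or unscaled library sizes for levels, and each library or line left out. Leaving out each line within the paired fit was added after the data were seen. The fits were tested on simulated data.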

Additional observations from a re-analysis of the deposited data

Results flagged for a closer look

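In 7 of 102 searched sets of 4 values, 1 library lay far from the other 3 by Dixon's ratio, past its 95% critical value, which chance alone gives in about 1 in 20 sets. All 7 were libraries of WT4. *JUNB* was at 71.5 CPM with serum in WT4 (35.6 to 41.3 in the others) and at 74.8 CPM without serum (49.2 to 51.4). *JUND* was at 91.2 CPM in WT4 without serum, below the 110.6 to 112.3 of the others. *EGR2* was at 1.42 CPM in WT4 without serum (0.180 to 0.261 in the others) and *DUSP1* at 16.9 CPM (13.0 to 13.3). *ARC* was at 4.37 CPM in WT4 with serum (1.22 to 1.62 in the others) and at 2.97 CPM without serum (1.24 to 1.49). With both WT4 libraries left out, the unpaired fit called 4 members higher (11.8%) and 3 lower (8.82%), below the 14.3% and 17.4% of all genes tested in that fit.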

How the results depend on the processing

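The replicate block added the calls of 14 of 34 members and left the other 20 as they were, from 1 member higher and 2 lower to 8 and 9, and over all genes from 1957 and 2477 to 4106 and 3961. With the block and the GC correction these were 7 and 15 members, and 4196 and 3971 genes. The listed genes around the module went from 9 higher and 29 lower to 26 and 47 with the block and to 23 and 57 with the GC correction as well. Upper-quartile scaling, at least 10 counts in every library, DESeq2 and voom each called 2 members higher (*IER3* added), DESeq2 also called *FOSL1* lower, and upper-quartile scaling called 14 listed genes higher. Upper-quartile scaling also moved the share of higher calls over all genes from 44.1% to 57.6%, and no scaling moved the median of all genes by over 0.1. Leaving out a library or a line in the unpaired fit gave 0 to 4 members higher and 1 to 3 lower, 620 to 2849 genes higher and 969 to 3279 lower, and 4 to 14 and 8 to 37 listed genes. The lowest counts over all genes came without line WT1, and the highest without the WT4 serum library. Leaving out a line in the paired fit gave 7 to 9 members higher and 8 to 9 lower, and 2979 to 4479 genes higher and 3078 to 4459 lower. The median level of the members was 9.36 RPKM with serum and 8.90 without on longest transcripts, against 8.07 and 7.26 on merged exons.

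Genes with small changes turned direction. With the GC correction, *MAFF* was at -0.073, *EGR3* at -0.067, *IER2* at -0.15, *ZFP36* at -0.092 and *BTG1* at 0.16. *EGR3* was at -0.0012 in DESeq2, *KLF6* at -0.0054 under RLE, -0.0034 without a filter, -0.014 in DESeq2 and -0.0026 in voom, and *BTG1* at 0.034 under upper-quartile scaling. Leaving out a library or a line ranged from -0.39 to 0.59 for *FOS*, -0.96 to 1.40 for *EGR2*, -0.24 to 0.29 for *EGR3*, -0.10 to 0.46 for *NR4A3*, -0.088 to 0.070 for *KLF6*, -0.25 to 0.0012 for *MYC*, -0.32 to 0.037 for *DUSP2*, -0.039 to 0.12 for *ZFP36*, -0.078 to 0.0019 for *BTG1*, -0.62 to 0.36 for *ARC* and -0.016 to 0.38 for *PHLDA1*. The cause of these turns was not tested. *EGR2* had the fewest counts of the members, at 4 to 80 in a library.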

Other observations

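Of 10 tested NAB and MAX network genes, 3 rose (30%) and 2 fell (20%) in the unpaired fit, against 11.1% and 14.0% of all tested genes (4 and 3, or 40% and 30%, in the paired fit, and 3 and 2 in the GC-corrected paired fit). *MXD4*, a repressor that competes with MYC for MAX, rose by 1.37 (SE 0.24, edgeR adjusted p 0.00536), and *MNT* and *MXI1*, repressors of the same network, rose as well. *MLX* changed by -0.40 (SE 0.06, edgeR adjusted p 0.00282), and *MAX* fell as well. *MYC* itself was at 24.1 to 35.9 CPM with serum and 23.3 to 35.9 without.

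Of 21 tested paralogs of the members, 2 rose (9.52%) and 4 fell (19.0%) in the unpaired fit, against 11.1% and 14.0% of all tested genes. Within lines 8 rose (38.1%) and 5 fell (23.8%), against 23.2% and 22.4%, and with the GC correction 7 rose (33.3%) and 9 fell (42.9%), against 23.7% and 22.5%. *KLF15*, a metabolic KLF factor, rose by 1.17 (SE 0.18, edgeR adjusted p 0.00265), and *TOB1*, an antiproliferative relative of *BTG1*, rose as well. *BTG3* changed by -0.87 (SE 0.13, edgeR adjusted p 0.00213), and *KLF16*, *TRIB3* and *RHOA* fell as well. *MNT*, *MXI1*, *MAX*, *TOB1*, *KLF16*, *TRIB3* and *RHOA* were named after their values were seen.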
